A study of Mus musculus with 16 samples.

Results

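The effect of the Mtm1 knockout in mice that all received tamoxifen was measured by RNA-seq of quadriceps muscle, with 4 libraries from knockout mice on the drug (KO + TAM, libraries 13 to 16) set against 4 from wild-type mice on the drug (WT + TAM, libraries 5 to 8). These are 8 of the 16 libraries of the series, and all 41388 genes of the count table entered the comparison. Both groups were C57BL/6 mice that ate a chow with tamoxifen-citrate, labelled 40 mg/kg per day, from day 21 and were 36 days old at collection. The knockout, labelled mtm1 -/-, is a deletion of exon 4 present in every cell of the body, so a change in muscle RNA can arise in the fiber or outside it. Every mouse of the comparison carried the drug, and its own effect cannot be read from it. Untreated wild-type (WT 2 to 4) and knockout (KO 9 to 11) libraries of the same age and background served only to set the genotype effect with the drug beside that without it.

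MTM1 is a lipid phosphatase that removes a phosphate from the phosphoinositides of endosomes, and loss of the human gene causes X-linked myotubular myopathy. The disease is known for weakness, small fibers with central nuclei and disordered triads, the junctions where the transverse tubules of the surface membrane meet the sarcoplasmic reticulum and electrical excitation is turned into calcium release. Mouse quadriceps is made mostly of fast fibers, and tamoxifen is a selective modulator of estrogen receptors. The comparison asks which of the knockout's differences in muscle RNA stand in mice on the drug.

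Before the results, 3 facts of the libraries bear on them. Total counts ran from 25702605 to 26828632 in WT + TAM and from 28272239 to 29847222 in KO + TAM, so depth differed between the genotypes without overlap; with all 8 libraries thinned to the lowest total, 965 genes were called in place of 979. The 10 most abundant genes of a library took 24.2% to 25.3% of its counts in WT + TAM and 15.01% to 19.04% in KO + TAM, and the TMM scaling that corrects for this set factors of 0.89 to 0.93 and 1.03 to 1.19. WT + TAM 7 and 8 were far more alike than any other 2 libraries of one group, with a between-library coefficient of variation of 6.23% over genes against 17.5% to 25.1% in the other pairs of tamoxifen libraries, but 27.5% of their genes still differed by more than counting noise and they were kept as 2 mice. With their counts summed into 1 library, 539 genes were called, 538 of them among the 979, and all 979 had an adjusted p of at most 0.05. Counts given as "with 7 and 8 summed" refer to that fit. Where values of several libraries are listed, those of WT + TAM 5 to 8 stand first, in that order, and those of KO + TAM 13 to 16 after "against".

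**Figure D1:**
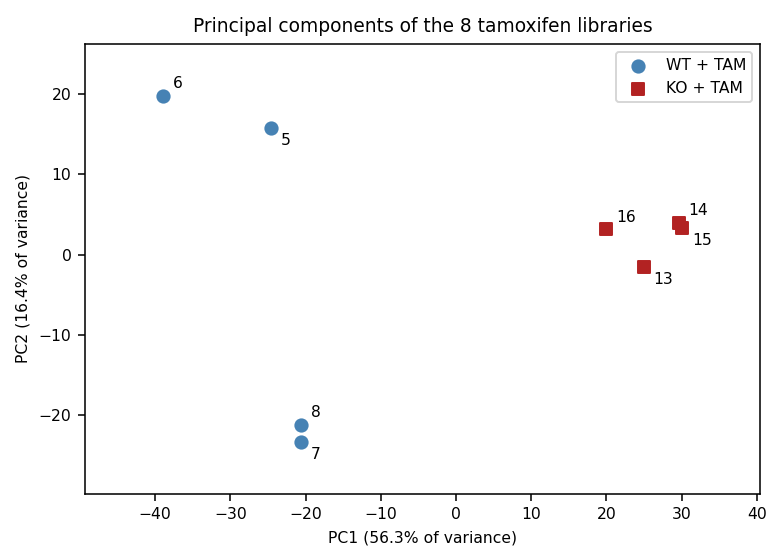
Principal components of log2 scaled counts over the 1000 most variable genes, one point a library, with WT + TAM as circles and KO + TAM as squares. The genotypes separate on the first axis (56.3% of the variance) and WT + TAM 5 and 6 separate from 7 and 8 on the second (16.4%).

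WT + TAM 5 and 6 differed from 7 and 8 in 4 genes picked here after their values were seen. Adipoq, the fat cell hormone adiponectin, stood at 3631, 3026, 982 and 956 normalized counts (counts scaled to a common library size) in WT + TAM 5 to 8 and at 1198, 1133, 1121 and 1904 in KO + TAM 13 to 16. Ucp1, the uncoupling protein of brown fat, read 1465, 1065, 127 and 100.5 in WT + TAM against 92.7, 26.2, 154 and 1739 in KO + TAM, with 1 high knockout library. Top2a, a topoisomerase of dividing cells, read 73.8, 28.1, 275 and 364 in WT + TAM, and the clock gene Arntl read 110.1, 73.2, 492 and 456. Adipoq and Ucp1 were thus high in 2 wild-type libraries and Top2a and Arntl in the other 2, and the part of this split in the results was not tested. Acta1 and Ckm, of skeletal muscle, and Tnnc2, Tnnt3, Mylpf and Pvalb, of its fast fibers, were highly abundant. They were among the 10 genes of highest RPKM (reads scaled by gene length and library total) in all 8 libraries. The Y-linked gene Ddx3y read 2503 to 2791 and 2469 to 2804, while Xist was at 0 in all 8.

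Mtm1 itself checks the labels. Its normalized counts were 341, 517, 413 and 389 in WT + TAM libraries 5 to 8 and 49.6, 81.9, 73.4 and 84.8 in KO + TAM libraries 13 to 16, so every knockout library lay below every wild-type library. The gene, at chrX:71210767-71315691 on the plus strand (GRCm38), was 5.72-fold lower (log2 fold change -2.52 ± 0.20 (SE), adjusted p = 5.38e-05, edgeR quasi-likelihood test). An exact permutation test of the 8 values gave a two-sided p of 0.0286, the smallest that 4 against 4 allows. Only exon 4 is removed by design, and gene-level counts do not show which exons the residual reads came from. Without the drug the log2 difference was -2.56.

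Of 14563 genes with enough counts to test, 979 (6.72%) passed an adjusted p of 0.01, 498 higher (3.42%) and 481 lower (3.3%) in KO + TAM. All 979 had groups that did not overlap, as did 3272 of all tested genes (22.5%). Higher genes moved further: their median log2 fold change was 1.26, against -0.95 for lower genes, and 323 of them at least doubled where 218 of the lower genes at least halved. At 8-fold or more the numbers were 53 and 10. The median over all tested genes was -0.01. Protein-coding genes made up 475 of the higher and 441 of the lower calls, and antisense transcripts 5 and 17. Among the calls, 28 of the higher genes had under 10 counts in every WT + TAM library and 7 of the lower genes in every KO + TAM library. Such genes passed the count filter through the other group alone, so the filter itself set their groups apart, called or not. The calls were 28 of 69 tested genes low in WT + TAM and 7 of 11 low in KO + TAM. Those named here are 4933415F23Rik, Fbxl13, Fosl1, Gdf5, Sprr1a, Th, Tac4, Gm12092 and Gm12295. Krt18, Krt8, Aldh3a1, Gm7325 and Igfbp2, among others, had 10 counts in some WT + TAM libraries but not in all. Genes of this kind also needed KO + TAM libraries to pass the filter, which thus favored their being higher there. The split between directions depends on the scaling: with library totals alone, which move the median of all genes by 0.28, 1657 of 1874 calls were higher (88.4%, against 50.9%). All directions given here are after TMM scaling. Of 168 called genes that are members of the lists or named by rule, 94 kept the call whichever of the 8 libraries was left out, 19 lost it without 1 to 3 of them and 55 without 4 or more.

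**Figure D2:**
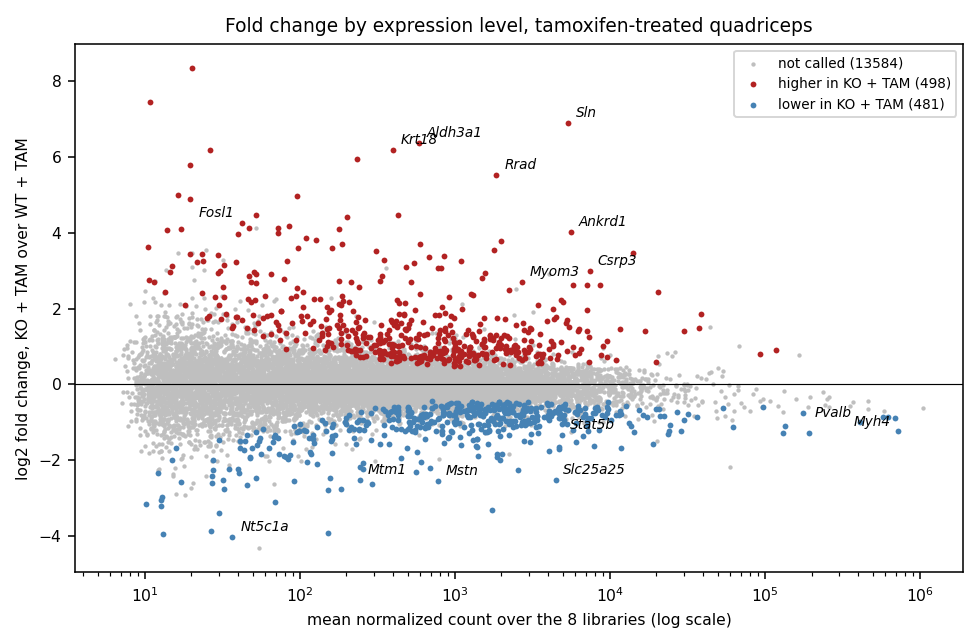
Log2 fold change of KO + TAM over WT + TAM (vertical axis) against the mean normalized count over the 8 libraries (horizontal, log scale) for the 14563 tested genes; the 498 genes called higher are red and the 481 called lower blue. Large increases span all levels (Sln, Rrad, Ankrd1), most large decreases sit at low or middle levels, and the most abundant called genes, such as Myh4 and Pvalb, are lower; the fitted change of genes with almost no reads in WT + TAM depends on the fit and is no bound.

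The largest increase among genes with a mean of at least 50 counts in 1 group was that of Sln, which encodes sarcolipin, a small inhibitor of the sarcoplasmic reticulum calcium pump. It read 143, 99.1, 74.2 and 42.6 in WT + TAM against 6303, 21153, 9316 and 5881 in KO + TAM, 119-fold higher (log2 fold change 6.89 ± 0.53 (SE), adjusted p = 4.63e-05). The lowest knockout library held over 40 times the highest wild-type library. Other large increases were those of Aldh3a1, an aldehyde dehydrogenase (6.36), and of the paired simple-epithelium keratins Krt18 (6.19) and Krt8 (5.94). Krt18 read 4.84, 9.01, 23.9 and 4.73 in WT + TAM against 504, 1439, 809.7 and 384 in KO + TAM, and Krt8 6.05, 2.25, 12 and 9.46 against 252, 976, 443 and 164, so both keratins were at low counts in wild type and their libraries kept the same order in the knockout. Library 14 was highest for all 3 of these genes and for Sln.

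Rrad combined a large change with a small spread. This small GTPase, which binds the beta subunit of voltage-gated calcium channels, read 76.2, 50.7, 92.1 and 99.3 in WT + TAM against 2396, 3590, 4710 and 3846 in KO + TAM (log2 fold change 5.51 ± 0.26 (SE), adjusted p = 1.4e-06). The other 4 genes with the lowest p among increases were Myom3, an M-band protein of slow and intermediate fibers (2.71 ± 0.12), Ahnak2, a scaffold protein (3.06 ± 0.15), the collagen gene Col8a1 (3.77 ± 0.24) and Csrp3, a Z-disc LIM protein (2.99 ± 0.20). All 5 kept an adjusted p of at most 0.000205 with 7 and 8 summed. At lower counts, Sox11, a developmental transcription factor, read 10.1 to 31.1 against 212 to 497, the metallothionein Mt3 26.3 to 62.9 against 457 to 1694, the uncharacterized 4933415F23Rik 3.63 to 8.28 against 106 to 327, and Th, tyrosine hydroxylase, 2.37 to 8.38 against 26.7 to 253. Th rested on few reads and lost its call with 7 and 8 summed (adjusted p = 0.0118). Sprr1a, a small proline-rich protein, had 2 reads in all WT + TAM libraries and 244 in KO + TAM, a ratio of 90.0 with a 95% interval for counting error of 24.6 to 747.

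Several of the 10 largest decreases were of poorly known transcripts. Nt5c1a, a cytosolic nucleotidase that makes adenosine from AMP in muscle, read 37.5 to 132 against 0.844 to 10.1 (log2 fold change -4.02 ± 0.62 (SE), adjusted p = 0.00174). B230312C02Rik, a long noncoding RNA, stood in WT + TAM at 2744, 2410, 3754 and 3676 and read 436, 103, 139.7 and 596 in KO + TAM (-3.31 ± 0.48). C130080G10Rik, annotated as antisense, starts 787 bases from the start of the cardiac actin gene Actc1 on chromosome 2 and read 227 to 341 against 1.58 to 50.7 (-3.92). Actc1 beside it read 84065, 79063, 116008 and 109198 in WT + TAM against 21163, 14127, 2659 and 47744 in KO + TAM without passing the threshold (log2 difference -2.18 ± 0.60, adjusted p = 0.0307). Both had their lowest value in library 15 and their highest knockout value in library 16, and whether reads were assigned by strand is not given in the sources used here. Prima1, the membrane anchor of acetylcholinesterase (-3.11), the cadherin gene Cdh4 (-2.79), Pm20d2, of a peptidase family (-2.75), and Cyp4f39, a fatty acid hydroxylase (-2.62), were among the rest. Gm15676 (-2.66), the protein-coding gene AI118078 (-2.54) and Mstn completed the 10.

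Mstn, which encodes myostatin, the secreted inhibitor of muscle growth, was strongly lower. It read 1057, 2120, 1058 and 1054 in WT + TAM against 246, 178, 236 and 242 in KO + TAM (log2 fold change -2.55 ± 0.24 (SE), adjusted p = 0.000151). WT + TAM 6 stood at about 2 times the other 3, which lay within 4 counts of each other, and without it the log2 fold change of Mstn was -2.23. Among decreases the lowest p belonged to Fam57b, a ceramide synthase-related membrane protein (-1.61 ± 0.11), Stat5b, the transcription factor downstream of growth hormone (-1.34 ± 0.11), Mtm1, Slc25a25, the ATP-Mg/phosphate carrier of mitochondria (-2.53 ± 0.21), and Mylk2, the kinase of the fast myosin light chain (-1.32 ± 0.12). Slc25a25 read 7634, 8225, 7309 and 7296 in WT + TAM against 904, 1213, 1199 and 1957 in KO + TAM. Its groups stood more than 3-fold apart at their nearest values.

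**Figure D3:**
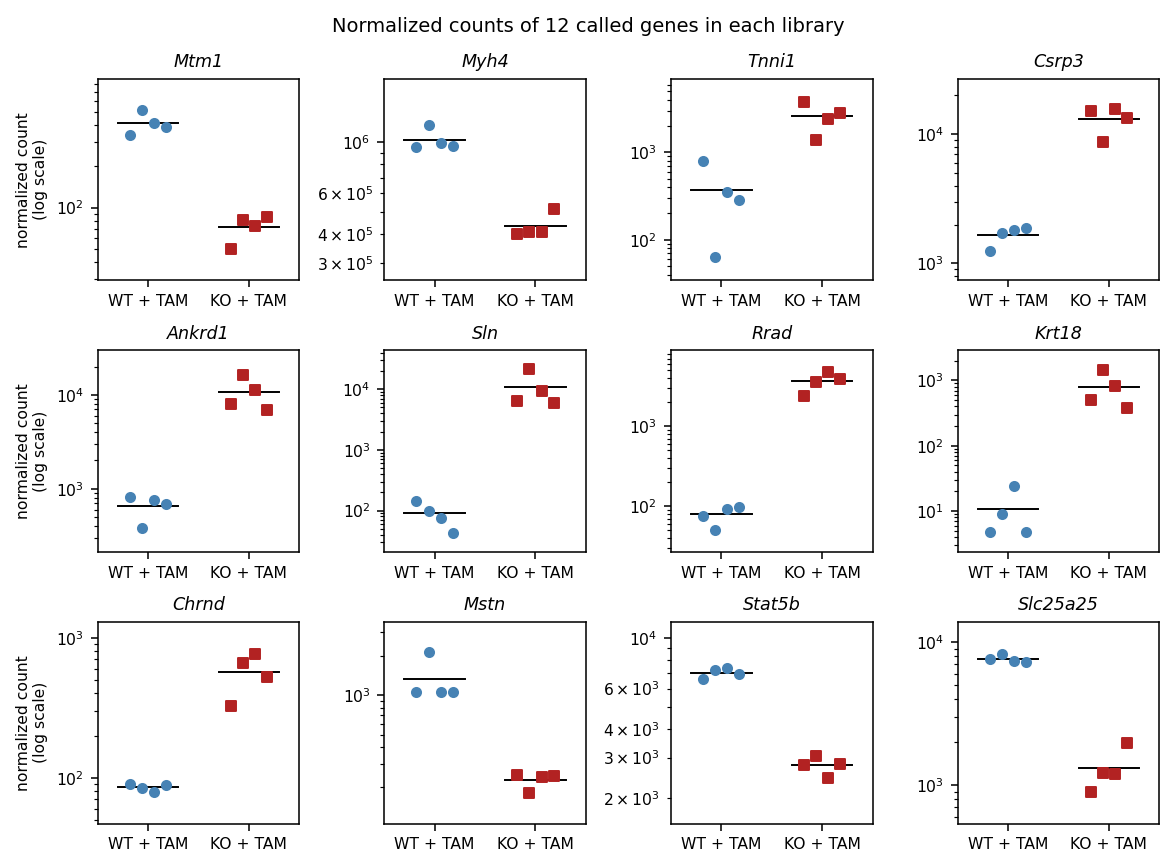
Normalized counts (log scale, each panel with its own range) of 12 called genes in the 4 WT + TAM (circles) and 4 KO + TAM (squares) libraries, in order of library number, with a bar at each group's mean. No panel shows overlap between the groups, and the spread within a group is widest for Tnni1, where WT + TAM 6 is low, and for Krt18.

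Promoters of 4 genes that the results turn on are given from RefSeq (GRCm38.p6), each the 250 bases before the annotated start, to show the sequences beside the changes: a stretch-response gene that rose, the main fast myosin that fell, and 2 acetylcholine receptor subunits that rose together. Ankrd1 lies at chr19:36119845-36120094 (minus strand), with capitals on CATTCC (M-CAT, the site of TEAD factors, here read on the other strand). Myh4 lies at chr11:67237562-67237811 (plus), with capitals on CAGCTG (the E-box of myogenic factors), on a CArG box, on a MEF2 site and, nearest its 5′ end, on CATTCC. Chrna1 at chr2:73580339-73580588 (minus) and Chrng at chr1:87205561-87205810 (plus) carry capitals on CAGCTG, and Chrna1 also on one match of TGANTCA. In the GENCODE annotation the genes Ankrd1 (chr19:36111961-36120099) and Chrng (chr1:87204657-87212694) span these stretches, so their starts differ from those of RefSeq.
Ankrd1: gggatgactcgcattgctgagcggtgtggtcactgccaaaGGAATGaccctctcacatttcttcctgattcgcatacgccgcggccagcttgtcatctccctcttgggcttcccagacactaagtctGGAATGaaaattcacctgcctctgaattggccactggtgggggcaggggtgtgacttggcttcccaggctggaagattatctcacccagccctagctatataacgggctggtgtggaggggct
Myh4: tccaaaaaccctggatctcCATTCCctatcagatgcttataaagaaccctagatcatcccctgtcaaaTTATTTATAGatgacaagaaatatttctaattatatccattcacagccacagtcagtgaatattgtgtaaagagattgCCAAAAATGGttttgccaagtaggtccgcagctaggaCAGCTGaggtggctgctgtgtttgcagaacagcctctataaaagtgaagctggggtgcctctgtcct
Chrna1: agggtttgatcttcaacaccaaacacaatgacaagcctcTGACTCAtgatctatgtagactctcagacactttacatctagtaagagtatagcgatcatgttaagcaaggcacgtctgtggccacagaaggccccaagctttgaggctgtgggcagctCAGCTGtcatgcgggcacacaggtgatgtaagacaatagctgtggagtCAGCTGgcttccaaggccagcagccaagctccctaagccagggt
Chrng: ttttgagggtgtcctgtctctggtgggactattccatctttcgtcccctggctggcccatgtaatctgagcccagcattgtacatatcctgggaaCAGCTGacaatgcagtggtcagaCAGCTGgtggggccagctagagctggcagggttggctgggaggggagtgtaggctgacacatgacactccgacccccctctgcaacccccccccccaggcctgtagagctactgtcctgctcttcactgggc
Ankrd1 holds 2 M-CAT matches and Myh4 holds 1, so the letters stand before a gene that rose and one that fell. Chrna1 and Chrng hold 2 E-boxes each and Myh4 holds 1. Myh4 also holds 3 TATAAA matches, which were not marked as such, and 1 of them lies on the other strand within the capitals of the MEF2 site. Promoters were found by symbol for 10384 tested genes and searched on both strands, from 250 bases before to 50 after the start, with overlaps allowed. The E-box stood in 15.5% of them, in 22.6% of those called higher (81 of 359) and in 21.1% of those called lower (72 of 342). M-CAT stood in 12.1% of all, 15.04% of higher and 14.3% of lower genes. TGANTCA, the letters of AP-1, stood in 4.93% of all, 9.47% of higher (34 genes) and 5.26% of lower genes (18). The CArG box (1.35%, 2.51% and 2.34%), the MEF2 site (2.01%, 1.95% and 3.80%), TGACGTCA (3.20%, 1.95% and 2.05%) and TATAAA (7.36%, 11.7% and 8.19%) were searched too. These shares are descriptions and were not tested. The promoters of Sln, Rrad, Fosl1 and Chrnd were not analysed here.

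Among 18 genes of fast 2B fibers, the fastest of the mouse, 9 fell and none rose, and 17 had a negative log2 fold change (median -0.71, against -0.01 over all genes); 5 were called with 7 and 8 summed. Myh4, the 2B myosin heavy chain, read 948027, 1186030, 987798 and 960912 in WT + TAM against 398414, 409157, 406752 and 513446 in KO + TAM (log2 fold change -1.24 ± 0.16 (SE), adjusted p = 0.000833). The knockout libraries held less than 6 counts for every 10 in the lowest wild-type library. Actn3, the Z-disc actinin of fast fibers (-1.28), Mybpc2, the fast myosin-binding protein C (-1.28), and Mylk2 fell by similar amounts, while the calcium buffer Pvalb (-1.0), the pump Atp2a1 (-0.90), Tmem233 (-0.95), creatine kinase Ckm (-0.87) and Myoz1 (-0.63) had smaller values. Ckm, Atp2a1, Pvalb and Myoz1 had adjusted p values of 0.0139 to 0.0226 with 7 and 8 summed. These shifts are in RNA from whole muscle, in which fewer fibers of a type and less RNA per fiber cannot be told apart.

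Among 16 slow fiber genes 7 rose and none fell, 15 had a positive log2 fold change, and the median was 1.80 (6 called with 7 and 8 summed, 2 in a fit of all 16 libraries). Csrp3 read 1258, 1719, 1822 and 1873 in WT + TAM against 15127, 8755, 15764 and 13262 in KO + TAM, and Myom3 682, 624, 791 and 772 against 5007, 5022, 4081 and 4664. The groups were far apart for these 2 genes, and both were tight for Myom3, while Csrp3 was lower in KO + TAM 14 than in the other knockout libraries. Tnni1, the slow inhibitory troponin, read 795, 63, 352 and 286 in WT + TAM against 3783, 1382, 2436 and 2861 in KO + TAM (log2 fold change 2.81 ± 0.56 (SE), adjusted p = 0.00672; adjusted p = 0.0214 with 7 and 8 summed). Its wild-type values spanned more than 10-fold, with library 6 low. Library 6 was also lowest in WT + TAM for Myh7, the slow myosin heavy chain, at 2467, 96.8, 821 and 859.9 against 5683, 908, 2588 and 5846 in KO + TAM, a difference that did not pass (1.82 ± 0.75, adjusted p = 0.117). Ankrd2 (2.62), the light chain Myl6b (2.38), Myoz2 (1.77) and the slow calcium pump Atp2a2 (1.05) completed the 7. How much slow muscle each sample held was not measured here, and its part in these values was not tested.

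Shares within a library do not depend on scaling between libraries. Of the summed RPKM (the authors' length-scaled values) of the 4 adult myosin heavy chains, Myh4 made up 88.3%, 92.4%, 85.9% and 85.8% in WT + TAM and 56.8%, 55.1%, 69.8% and 70.35% in KO + TAM. Myh1, the 2X myosin, made up 10.1% ± 2.34 (SD, n = 4) and 28.6% ± 7.84, and Myh2, the 2A myosin, 1.72% ± 0.744 and 8.02% ± 3.87. These and the other shares below were chosen after the values were seen. The groups did not overlap for any of these 3 (exact permutation test, two-sided p = 0.0286, the smallest possible, 0.0334 adjusted over the 7 shares computed). Most of the shares were built from genes whose groups already stood apart, so the p values here and below add no support. The adjustment does not cover that choice. The Myh7 share was 0.0675% ± 0.0661 and 0.381% ± 0.231 and overlapped (exact p = 0.0571). Actn2 rose from 5.58% ± 2.2 to 28.0% ± 4.23 of the 2 actinins and Atp2a2 from 0.170% ± 0.0388 to 0.656% ± 0.197 of the 2 calcium pumps (exact p = 0.0286 each). Actc1 went from 6.32% ± 0.910 to 2.12% ± 1.87 of the 2 striated actins, also without overlap. Reads of near-identical myosin stretches may have been split or lost between paralogs in counting.

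Among 9 sarcomere genes of the fetus and the heart 5 rose and none fell (median 1.83; 4 with 7 and 8 summed). Ankrd1, a titin-binding repeat protein that muscle makes under stretch, read 808, 383, 758 and 680.1 in WT + TAM against 8038, 16466, 11210 and 6871 in KO + TAM, 16.2-fold higher (log2 fold change 4.02 ± 0.32 (SE), adjusted p = 4.74e-05). Myh3, the embryonic myosin heavy chain, read 150.0, 42.8, 146 and 149 against 1455, 1993, 500.4 and 1034 (log2 fold change 3.35 ± 0.45 (SE), adjusted p = 0.000865). Wild-type library 6 and knockout library 15 were the lowest of their groups. The atrial light chain Myl4 (2.03), the cardiac troponin Tnnt2 (2.15) and the neonatal myosin Myh8 (1.83) rose about 4-fold; Myh8 had an adjusted p of 0.0155 with 7 and 8 summed. Actc1, the fetal and cardiac actin, had the values given above, and DESeq2 called 1 member lower.

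Among 15 genes of the stretch response 7 rose and none fell (median 0.44), and all 7 kept their calls with 7 and 8 summed. Fhl1, a LIM protein of the sarcomere, read 14104, 17346, 18391 and 17434 in WT + TAM against 57569, 64074, 60814 and 58843 in KO + TAM (log2 fold change 1.84 ± 0.13 (SE), adjusted p = 2.33e-05). Fhl2, its relative of heart muscle, read 37.1 to 77.8 against 237 to 376 (2.33). Xirp1 (1.70) and Lmcd1 (1.73), of the intercalated disc and Z disc, rose by more than 3-fold, beside Ankrd1, Ankrd2 and Csrp3. The Ankrd2 libraries read 1960, 1340, 2348 and 2402 against 15685, 6795, 17067 and 9798, with library 14 the lowest of the knockout.

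In the Z disc and costamere, which tie sarcomeres to each other and to the membrane, 8 of 27 genes were higher and 3 lower (median -0.12; 6 and 1 with 7 and 8 summed, 12 and 1 under library-size scaling). Desmin (Des), the main intermediate filament of muscle, read 91710, 76876, 81090 and 80502 in WT + TAM against 170162, 152626, 180797 and 112336 in KO + TAM (log2 fold change 0.90 ± 0.16 (SE), adjusted p = 0.00416; adjusted p = 0.0164 with 7 and 8 summed). The keratins Krt8 and Krt18, intermediate filaments too, rose, as given above. Actn2 (1.49), the chaperone Cryab (1.40), the laminin receptor Itga7 (0.81) and its partner Itgb1 (0.65) were higher. Actn3, Myoz1 and the protease Capn3 (-0.70) were lower. Of the kelch and thin filament genes 2 of 18 were higher, Lmod2 (1.46) and Klhl40 (0.78), both tied to nemaline myopathy or cardiomyopathy in people, and 4 lower, Klhl33 (-1.84), Klhl31 (-1.01), Tmod4 (-0.47) and Tpm1 (-0.85). With 7 and 8 summed only Klhl33 of these 6 stayed at an adjusted p of 0.01 (0.0035).

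Among 25 genes of the triad 4 fell and none rose (median -0.41). Jph2, a junctophilin that holds the 2 membranes together, read 35668, 43767, 39434 and 40072 in WT + TAM against 21968, 20677, 14598 and 24926 in KO + TAM (log2 fold change -0.95 ± 0.16 (SE), adjusted p = 0.00307). Its relative Jph1 (-0.78), Fsd2 (-0.88) and Cacna1s, the voltage sensor (-0.72), had smaller values. With 7 and 8 summed 2 of the 4 stayed called, and under library-size scaling 1 member was called lower and 2 higher. Bin1, which shapes the transverse tubule, read 21877 to 27555 in WT + TAM and 27661 to 33880 in KO + TAM and did not pass (0.24 ± 0.12, adjusted p = 0.198).

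Among 13 calcium pumps and buffers 3 fell: Atp2a1, which read 939810, 1035610, 834504 and 799864 against 540038, 539662, 375617 and 479261, Pvalb, which read 597448, 471126, 547631 and 562966 against 324787, 254089, 198577 and 309395, and the plasma membrane pump Atp2b3 (-1.14 ± 0.20). The groups were apart for each, with the nearest Pvalb values, in WT + TAM 6 and KO + TAM 13, less than 1.5-fold from each other. Sln and Atp2a2 were the 2 that rose. With 7 and 8 summed Atp2b3 alone of the 3 lower genes stayed called (adjusted p = 0.00926).

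Of 24 phosphoinositide enzymes and their partners, the group to which MTM1 belongs, 3 fell and 1 rose (median -0.19). Besides Mtm1 itself the lower genes were Dnm3, a dynamin (-1.03, 171 to 234 against 75.6 to 119), and the related phosphatase Mtmr3 (-0.46), neither called with 7 and 8 summed (adjusted p = 0.0107 and 0.0257). Vac14, a scaffold of the kinase that makes the lipid MTM1 acts on, read 629, 732, 724 and 684 in WT + TAM against 1298, 1461, 1373 and 1003 in KO + TAM (log2 fold change 0.89 ± 0.13 (SE), adjusted p = 0.00135). Dnm2, the dynamin whose lowering has been tried as a treatment in mice of this kind, read 1109, 1259, 1248 and 1227 against 1325, 1368, 1442 and 1370. Every knockout value lay above every wild-type value, but the difference was small and did not pass (0.18 ± 0.09, adjusted p = 0.199). Pik3c2b, a lipid kinase whose loss has been studied in such mice, overlapped at 446, 777, 738 and 850.4 against 523, 782, 767 and 818 (0.04 ± 0.20). Its log2 difference turned to -0.13 without WT + TAM 5 and to -0.02 without KO + TAM 16.

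Innervated muscle keeps the acetylcholine receptor subunits off outside the synapse, and denervation turns them on. Among 15 genes of the receptor and synapse 7 rose and none fell (median 0.67; 4 with 7 and 8 summed). Chrnd, the delta subunit, read 90.7, 84.4, 79 and 88.7 in WT + TAM against 325, 665, 771 and 524 in KO + TAM (log2 fold change 2.74 ± 0.24 (SE), adjusted p = 9.76e-05). The alpha subunit Chrna1 read 882, 659, 962 and 893 against 2366, 3512, 3707 and 1925 (log2 fold change 1.76 ± 0.21 (SE), adjusted p = 0.000518). Wild-type values were tight for both and the lowest knockout library was 13 for Chrnd and 16 for Chrna1. Chrng, the fetal gamma subunit, read 11.3 to 39.9 against 71.9 to 98.4 (1.75; adjusted p = 0.0139 with 7 and 8 summed), and Chrnb1, the beta subunit, read 983 to 1431 against 2024 to 3059 (1.04). Chrne, the adult epsilon subunit that replaces gamma, did not pass (0.28 ± 0.23), and neither did Musk, the receptor kinase of the synapse (0.67 ± 0.29). Ncam1 (1.69), the filament Nes (1.61) and Colq, the tail of acetylcholinesterase (0.76), were the other 3.

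Among 20 myogenic and denervation genes 12 rose and 1, Mstn, fell (median 1.45; 9 higher with 7 and 8 summed). Myogenin (Myog), the factor of fiber differentiation, read 653, 397, 1094 and 1002 in WT + TAM against 1682, 1776, 2070 and 2772 in KO + TAM (log2 fold change 1.40 ± 0.28 (SE), adjusted p = 0.00672). Runx1, which denervated muscle switches on, read 84.7, 73.2, 135 and 112 against 587, 935, 1001 and 927 (log2 fold change 3.09 ± 0.23 (SE), adjusted p = 3.59e-05). The gap was wider for Runx1, whose lowest knockout library held more than 4 times the highest wild-type library. Cdkn1a, the cell cycle inhibitor p21, read 1851, 1174, 1704 and 1709 against 6979, 15198, 10263 and 7281 (log2 fold change 2.63 ± 0.25 (SE), adjusted p = 0.000162). Sox11 and Gm7325, a symbol of the fusion factor myomixer (4.13), Gdf5, a growth factor of denervated muscle (3.26), Gadd45a (1.5), Dclk1 (1.16) and Myf6 (1.07) rose too. Myog lost its call when any of 6 of the 8 libraries was left out. Myf6 had an adjusted p of 0.0279 with 7 and 8 summed. Pax7, which marks satellite cells, the stem cells of muscle, read 95.6, 156, 182 and 161 against 100.2, 59.1, 51.3 and 38.7 and did not pass (-1.26 ± 0.31, adjusted p = 0.0175), and of 9 satellite cell markers none did in edgeR (5 at an unadjusted p of at most 0.05, 3 called lower by DESeq2).

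**Figure D4:**
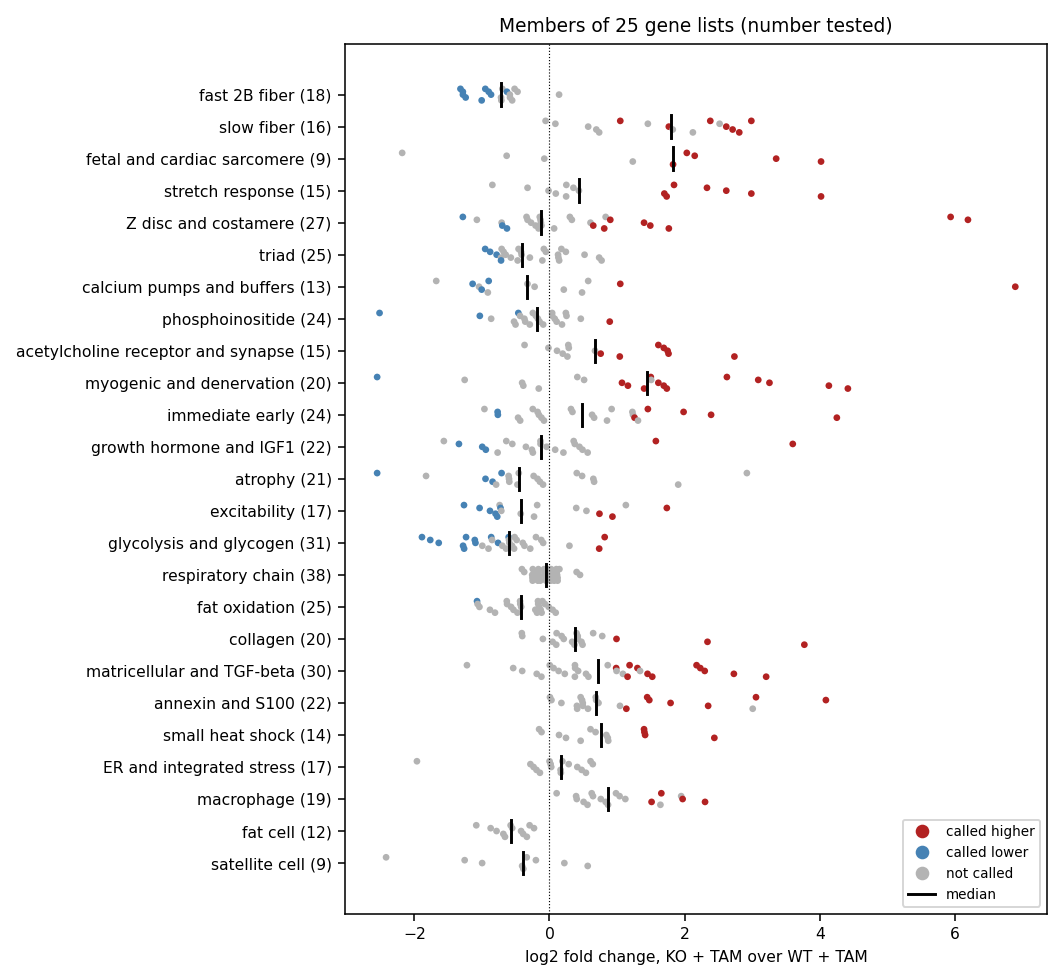
Log2 fold change of KO + TAM over WT + TAM (horizontal axis) for each tested member of 25 gene lists, with the number tested in brackets, called members in red (higher) or blue (lower), other members in grey and a bar at the list's median. The slow fiber and fetal sarcomere lists have medians near 1.8, the fast 2B list lies below 0 but for 1 member, and the respiratory chain list holds no called member.

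Of 24 immediate early genes, which cells switch on within minutes of a stimulus, 5 rose and 2 fell (median 0.49; 5 and 0 with 7 and 8 summed). Egr1, a zinc finger factor, read 507, 155, 449.9 and 525 in WT + TAM against 1762, 2035, 2209 and 2578 in KO + TAM (log2 fold change 2.39 ± 0.31 (SE), adjusted p = 0.000743). Fosl1, an AP-1 subunit, had 14 reads over the WT + TAM libraries and 373 over KO + TAM, at 1.21, 3.38, 9.57 and 2.37 against 37.5, 99.6, 71 and 115 normalized counts. Junb, another AP-1 subunit, read 478, 198, 529 and 582 against 1611, 1741, 2354 and 1359 (1.98 ± 0.29). WT + TAM 6 held the lowest value of Egr1 and Junb, as it did of Fos, whose groups overlapped (416, 70.9, 459.5 and 531 against 767, 509, 1234 and 1149, 1.31 ± 0.46, adjusted p = 0.0756). Myc (1.26) and Ier3 (1.46) were the other increases. Srf, the serum response factor (-0.77), and the nuclear receptor Nr4a1 (-0.76) were lower, with adjusted p values of 0.0169 and 0.0196 with 7 and 8 summed. Of 15 calcineurin and NFAT genes, 2 were called: Rcan1, a calcineurin inhibitor that calcineurin itself induces, read 1559, 1267, 2199 and 1909 against 5862, 5596, 8017 and 7798 (log2 fold change 1.98 ± 0.19 (SE), adjusted p = 0.000154), and the catalytic subunit Ppp3cb was lower (-0.73).

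In the growth hormone and IGF1 pathway 3 of 22 genes fell and 2 rose, and all 5 calls held with 7 and 8 summed. Under library-size scaling 1 member was called lower and 5 higher, and in a fit of all 16 libraries 1 lower and 2 higher. The 3 lower genes follow one another from membrane to nucleus. Ghr, the growth hormone receptor, read 3446, 5144, 3683 and 3299 in WT + TAM against 1887, 2012, 1780 and 2425 in KO + TAM (log2 fold change -0.94 ± 0.16 (SE), adjusted p = 0.00284). Jak2, its kinase, read 1215, 1966, 1003 and 1057 against 570.5, 654, 627 and 777 (-1.0 ± 0.20). Stat5b read 6578, 7205, 7378 and 6920 against 2785, 3046, 2449 and 2812, 2.53-fold lower with less than 1.3-fold between the extremes of either group. Igf1, the growth factor itself, overlapped (852 to 1575 and 1168 to 1580, 0.21 ± 0.19). Socs3, an inhibitor of JAK signalling, read 229.8, 164, 238 and 187 against 553, 457, 881 and 548 (log2 fold change 1.57 ± 0.21 (SE), adjusted p = 0.000881), and Igfbp2, an IGF-binding protein, 10.9, 9.01, 12 and 27.2 against 73.1, 441, 125 and 81.1 (3.60 ± 0.64).

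Of 21 genes of muscle atrophy none was called higher by edgeR or DESeq2, with 5 positive at an unadjusted p of at most 0.05, and 4 fell (median -0.45): Mstn, Foxo4 (-0.84), Fbxo31 (-0.95) and the sestrin Sesn1 (-0.71), and all 4 held with 7 and 8 summed. Trim63 and Fbxo32, the ubiquitin ligases of wasting muscle, did not pass (0.65 ± 0.23 and 0.40 ± 0.29). Fbxo32 read 6969, 3198, 8436 and 8635 in WT + TAM against 8813, 10552, 10981 and 5680 in KO + TAM. Ddit4, a stress-induced inhibitor of mTOR, followed the split within wild type at 6860, 5110, 883 and 1033 against 952, 905, 1084 and 974, so its log2 difference of -1.83 (adjusted p = 0.0431) rested on WT + TAM 5 and 6. Under library-size scaling 3 members of this list were called higher and 3 lower. The metallothionein Mt2 read 1758, 1187, 416 and 409 against 4230, 3370, 17616 and 3331 and missed the threshold (2.92 ± 0.64, adjusted p = 0.011), with library 15 far above the rest.

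Of 17 genes that set the excitability of the fiber membrane 6 fell and 3 rose (3 and 2 with 7 and 8 summed, 3 and 6 under library-size scaling). Scn4a, the sodium channel of adult muscle, read 8071, 12065, 9811 and 9298 in WT + TAM against 5410, 5507, 5319 and 5081 in KO + TAM (log2 fold change -0.88 ± 0.13 (SE), adjusted p = 0.00139). Its values in the knockout were within 1.1-fold of one another. Scn4b (-0.80), the potassium channels Kcna7 (-0.77), Kcnj12 (-1.27) and Kcnj11 (-1.03), and Abcc9, which pairs with Kcnj11 (-0.73), were lower. The inward rectifier Kcnj2 (0.74) and the sodium pump subunit Atp1b1 (0.93) were among those higher. Scn4b, Kcna7 and Abcc9 had adjusted p values of 0.0144, 0.0203 and 0.0158 with 7 and 8 summed.

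Of 31 genes of glycolysis and glycogen, the fuel of fast fibers, 11 fell and 2 rose, and 28 had a negative log2 fold change (median -0.60; 8 lower and 1 higher with 7 and 8 summed). Pygm, the glycogen phosphorylase of muscle, read 180587, 206594, 176917 and 167555 in WT + TAM against 98598, 83954, 68127 and 89291 in KO + TAM (log2 fold change -1.11 ± 0.15 (SE), adjusted p = 0.000936). The subunits of its kinase, Phka1 (-1.26) and Phkg1 (-1.10), and the phosphatase inhibitor Ppp1r1a (-1.89) fell alongside. Gpd2, the mitochondrial glycerol phosphate dehydrogenase, read 11794, 14812, 10511 and 10684 against 3683, 3443, 3145 and 5076 (log2 fold change -1.64 ± 0.17 (SE), adjusted p = 0.000222), and its cytosolic partner Gpd1 fell by 1.23 on the log2 scale. Fbp2 (-1.28), Pfkfb3 (-1.76), Eno3 (-0.76) and Pkm (-0.60) were lower too. The 2 increases were of the forms used outside fast muscle, hexokinase Hk1 (0.82) and the glucose transporter Slc2a1 (0.74).

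In oxidative metabolism none of 38 nuclear genes of the respiratory chain and none of 13 genes of the mitochondrial genome passed the edgeR test (medians -0.05 and -0.33), although 4 and 3 had an unadjusted p of at most 0.05, and DESeq2 called 0 and 1. In fat oxidation 1 of 25 was lower, the uncoupling protein Ucp3, at 3694, 2391, 4256 and 4193 in WT + TAM against 1466, 1936, 1516 and 1993 in KO + TAM (log2 fold change -1.07 ± 0.18 (SE), adjusted p = 0.00322; adjusted p = 0.0107 with 7 and 8 summed), although 23 of the 25 had a negative log2 fold change (median -0.42) and DESeq2 called 7 lower. Under library-size scaling 2 respiratory chain genes and 1 mitochondrial gene were called higher. Slc25a25 and Ucp3 were the 2 decreases of 20 regulators and carriers. Of 12 genes of AMPK and sugar sensing 3 were lower. Prkab2, the beta subunit of AMPK in muscle, read 7634, 12983, 8853 and 9085 against 3778, 4040, 3015 and 4169 (log2 fold change -1.36 ± 0.17 (SE), adjusted p = 0.000705), and the glucose uptake regulators Tbc1d4 (-1.17) and Tbc1d1 (-0.66) fell too. Under library-size scaling 2 of this list were lower and 2 higher.

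Of 30 matricellular and TGF-beta genes, which carry signals in the matrix, 11 rose and none fell (median 0.72; 10 with 7 and 8 summed). Mgp, matrix Gla protein, read 2158, 1245, 1619 and 1771 in WT + TAM against 9607, 8003, 7825 and 6468 in KO + TAM (log2 fold change 2.23 ± 0.18 (SE), adjusted p = 5.09e-05). Timp1, the metalloproteinase inhibitor, read 70.2, 21.4, 190.3 and 148 against 826, 676, 1293 and 1163 (log2 fold change 3.21 ± 0.48 (SE), adjusted p = 0.00149). In wild type Timp1 was high in libraries 7 and 8, and these did not reach the knockout. Spp1 (2.73), Postn (2.18), Ctgf (1.52), Thbs4 (1.45), Lox (1.30), Tgfb1 (1.19), Thbs1 (1.16) and Cyr61 (0.99) rose too. Of 20 collagen genes 3 rose and none fell (median 0.38; 1 with 7 and 8 summed): Col8a1, at 212, 198, 309 and 358 against 3601, 2471, 4618 and 4018, Col19a1 (2.34) and Col23a1 (0.99).

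A list of annexins and S100 proteins, which bind calcium and membranes, also held the scaffold gene Ahnak2. All 22 members tested had a positive log2 fold change, and 7 were called, Ahnak2 among them (median 0.69, 6 called with 7 and 8 summed). Ahnak2 read 171, 162, 149.6 and 190.4 in WT + TAM against 1207, 1319, 1785 and 1285 in KO + TAM (log2 fold change 3.06 ± 0.15 (SE), adjusted p = 1.72e-06). Anxa8 read 7.18 to 34.3 against 163 to 569 (4.09), S100a4 read 214 to 513 against 1678 to 3547 (2.35), and Anxa4 (1.79), S100a13 (1.48), Anxa7 (1.45) and Anxa2 (1.14) rose too. Of 14 small heat shock and chaperone genes 4 were higher, all of them kept with 7 and 8 summed: Hspb7, at 5146, 4795, 7657 and 7857 against 34787, 26026, 51715 and 25550 (log2 fold change 2.44 ± 0.26 (SE), adjusted p = 0.000231), Hspb1 (1.42), Cryab and Hspb8 (1.40). None of 17 genes of the ER and integrated stress responses passed the edgeR test (median 0.16; 4 at an unadjusted p of at most 0.05, 1 called by DESeq2). The lowest p there was that of Ddit3 (0.48 ± 0.12, adjusted p = 0.0194).

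Markers of other cells were read beside these changes. All 19 macrophage markers had a positive log2 fold change (median 0.87), 4 were called (2 with 7 and 8 summed), and their summed RPKM ran from 62.1 to 156 in WT + TAM and from 208 to 404 in KO + TAM. Mpeg1, a pore protein of macrophages, read 128, 98, 129 and 86.3 in WT + TAM against 281, 423, 448 and 239 in KO + TAM (log2 fold change 1.65 ± 0.23 (SE), adjusted p = 0.0012). Lgals3 (1.97), Cx3cr1 (2.30) and Ccr2 (1.51) were the others, and of 7 MHC class II genes H2-Eb1 was higher (1.41). Fibroblast markers gave 2 of 13 higher, Mfap5 (1.61) and Fbln1 (0.68), with summed RPKM of 760 to 1041 and 1341 to 1412. RPKM is scaled by library total, on which the median of all genes lies 0.26 higher (on log2(RPKM + 0.1)). The part of macrophages and fibroblasts in the matrix and annexin values was not tested.

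The heavy chain of immunoglobulin M was lower. Ighm read 675, 878, 1052 and 1120 in WT + TAM against 174, 152, 143 and 281 in KO + TAM (log2 fold change -2.31 ± 0.23 (SE), adjusted p = 0.00019), 4.97-fold lower; of the other 9 B cell markers 1 had enough counts to test. None of 12 fat cell, 13 endothelial, 9 pericyte or 10 Schwann cell markers passed edgeR's test or DESeq2, and 0, 2, 4 and 2 of them had an unadjusted p of at most 0.05. Fat cell markers all had negative values (median -0.56), with summed RPKM of 925 to 3481 in WT + TAM and 1436 to 2103 in KO + TAM, with libraries 5 and 6 high in wild type. T and NK cell and neutrophil markers had 2 testable members each and no call by edgeR, with 1 and 2 at an unadjusted p of at most 0.05 and 0 and 1 called by DESeq2. Bpgm, a red blood cell marker that muscle also makes, was lower (-0.99) and the complement receptor C5ar1 higher (1.48). The tendon marker Thbs4 is a matrix gene already counted.

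Of 17 genes of the estrogen response 2 were higher, Cited2 (1.02) and Myc, and the RNA of Esr1, which encodes the alpha estrogen receptor, was lower. For the protein the paper reports the other direction, higher in the knockout and, though reduced by tamoxifen, still above wild type. Esr1 read 609.7, 1045, 700.0 and 736 in WT + TAM against 415, 344, 356 and 517 in KO + TAM (log2 fold change -0.92 ± 0.19 (SE), adjusted p = 0.00704; adjusted p = 0.0148 with 7 and 8 summed). Pgr, the progesterone receptor that estrogen induces, read 49.6, 46.2, 50.3 and 46.1 against 21.5, 24.5, 24.5 and 24.9. Its groups did not overlap but it did not pass (-1.01 ± 0.25, adjusted p = 0.0204). In cholesterol synthesis 2 of 18 genes were called, Mvd higher (1.09) and Fdps lower (-0.53). Of 17 clock genes Per1 alone was called (-0.72; adjusted p = 0.0107 with 7 and 8 summed), and of 21 proliferation genes none was, with 1 at an unadjusted p of at most 0.05 and 1 called by DESeq2.

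The genotype effect was next set beside that of untreated mice, measured in other animals with no library in common. KO 9 to 11 against WT 2 to 4 gave 531 calls of 14740 tested (3.6%), of which 365 were called with tamoxifen too, 68.7% of the untreated and 37.3% of the treated calls, all in the same direction. With 3 against 3 libraries the untreated comparison had fewer replicates. Of 964 genes called with the drug and tested without it, 950 (98.5%) had the same direction in both, against 77.4% of all 14278 genes tested in both. The log2 fold changes of the 14278 genes had a Pearson correlation of 0.75 and those of the 964 one of 0.93, across genes, which are not independent. Over the 365 the median size was 1.27 with and 1.36 without the drug, and 131 were larger with it. The 365 were picked by passing both fits, and with fewer libraries larger effects are needed to pass without the drug. These sizes therefore cannot show whether the drug changed the genotype effect. List medians with and without the drug were 1.80 and 1.64 for slow fiber, -0.71 and -0.84 for fast 2B, 1.45 and 1.41 for myogenic and denervation genes; 10 of the 47 lists had medians of opposite sign, among them atrophy (-0.45 and 0.34) and fat cell markers (-0.56 and 0.56).

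**Figure D5:**
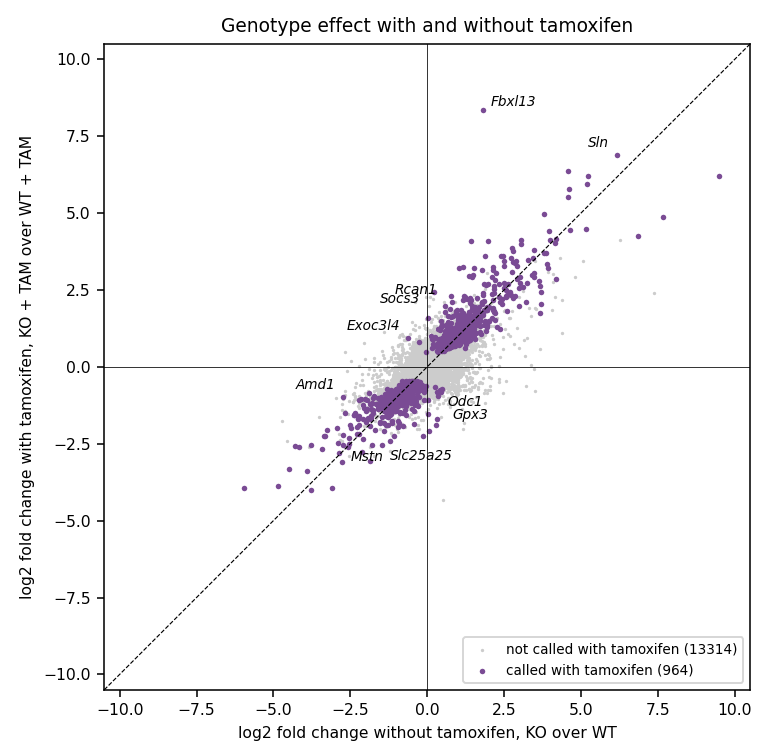
Log2 fold change of knockout over wild type with tamoxifen (vertical) against that without it (horizontal) for 14278 genes, with the 964 called with tamoxifen in purple and a dashed line at equal values. Most purple points lie near the line in the same quadrant on both axes, and the labelled Odc1, Gpx3 and Exoc3l4 lie across an axis; the fitted value of Fbxl13, at 0 counts in WT + TAM, is no bound.

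No gene of 15556 passed a test of the difference between the 2 genotype effects in edgeR (0%, lowest adjusted p 0.270), and 664 had an unadjusted p of at most 0.05 where 777.8 would by chance. DESeq2 called 12 at an adjusted p of 0.01, among them Amd1, Odc1, Rcan1, Exoc3l4, Fbxl13, Gpx3, H19 and Myl4, and 3 with WT + TAM 7 and 8 summed, Amd1, Rcan1 and Cpeb1. The standard error of this difference had a median of 0.287, against 0.178 for the effect with the drug, so a difference between the effects had to be larger than an effect to pass. The lowest p belonged to Amd1 and Odc1, which make adenosylmethionine decarboxylase and ornithine decarboxylase, the 2 regulated enzymes of polyamine synthesis. Amd1 read 2563, 3552, 2948 and 3036 in WT + TAM against 1390, 1184, 1338 and 2228 in KO + TAM, a log2 difference of -0.98 with the drug and -2.73 without it (difference 1.77 ± 0.30). Odc1 read 9014, 8646, 10905 and 10502 against 5544, 4790, 6528 and 6101, -0.77 with and 0.40 without the drug (difference -1.15 ± 0.21). Amd1 was thus lower in both settings and Odc1 passed with the drug and not without it (adjusted p = 0.138). With 7 and 8 summed the calls of Amd1, Odc1 and Exoc3l4 with the drug ended (adjusted p = 0.0146, 0.0114 and 0.0211). Rcan1 came next (1.98 with, 0.59 without), then Exoc3l4, of the exocyst-related family (0.95 and -0.64), and Fbxl13, an F-box protein at 0 reads in WT + TAM and 27.7 to 65.8 normalized counts in KO + TAM, at least 46.5-fold higher against 3 counts over the group.

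The 14 called genes with an opposite sign without the drug were Odc1, Exoc3l4, Per1, Tbc1d1, H19, Gpx3, Zfp385a, Pcx, Coq10b, Bai2, Ap1s2, Npy1r, Flrt1 and Gm10638, and none passed there, the lowest adjusted p being 0.124, of Exoc3l4. Gpx3, the plasma glutathione peroxidase, read 17861, 14773, 13110 and 12892 in WT + TAM against 9461, 7213, 9436 and 7490 in KO + TAM (-0.80 with and 0.43 without the drug). H19, an imprinted noncoding RNA abundant in young muscle, read 66192, 65098, 70420 and 70413 against 124507, 146404, 94416 and 108199 (0.80 and -0.27). Both had groups that stood apart with the drug, and the difference of their effects did not pass in edgeR (adjusted p = 0.27 and 0.347) but passed in DESeq2 (0.00364 and 0.00777). With 7 and 8 summed H19 lost its call with the drug (adjusted p = 0.0174) and DESeq2 called neither difference. Slc25a25 (-2.53 with and -1.46 without), Socs3 (1.57 and 0.03) and Ucp3 (-1.07 and -0.12) were called with the drug and not without it, and their differences did not pass either. Without the drug Slc25a25 narrowly missed the threshold (adjusted p = 0.0145), while Socs3 and Ucp3 were far from it (0.958 and 0.844).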

How the data were processed

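RNA-seq libraries were made from flash-frozen quadriceps, one mouse each according to the study's methods. The authors aligned reads with STAR 2.5.0c to GRCm38 and deposited read counts per gene made with HTSeq, and the submitters' processing notes also name bcl2fastq 2.17 and Cufflinks 2.2.1. For the counting mode, strand setting and annotation nothing was given in the sources used here. The authors also deposited RPKM values, scaled by gene length and library total, which were used here only for shares within a library, summed marker levels and an alternative test. The 32 columns used, of counts and RPKM, were matched to libraries by name.

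Counts were tested with edgeR 4.0.16 (limma 3.58.1, R 4.3.3): TMM scaling, genes kept by filterByExpr (minimum count 10), a quasi-likelihood fit of the 8 libraries, Benjamini-Hochberg adjustment over all tested genes, and calls at an adjusted p of 0.01, the study's threshold. Every adjusted p printed without another tool's name is from this test, and SE is the log2 fold change divided by the root of its F. Normalized counts are counts divided by the effective library size relative to its mean over the 8 libraries. The difference of genotype effects was fitted over 14 libraries. WT 1 and KO 12, which are not among the libraries of the study's own comparisons, entered only alternatives. DESeq2 1.42.0, edgeR's exact test, other scalings, filters and pseudocounts (0.1 and 1 on RPKM), thinning and leaving out each library were tried. The script was checked on simulated data.

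Gene positions were matched to GENCODE vM21 by identifier for 40254 of 41388 genes. The genes named are Mtm1; the 10 largest increases and decreases among called genes with a mean of at least 50 counts in 1 group and no overlap; the 5 lowest p in each direction and for the difference; called members of the lists, and up to 3 of lowest p of a list with none; and Esr1, Pgr, Dnm2 and Pik3c2b. Named outside this rule, after their values were seen, were Actc1, Acta1, Tnnc2, Tnnt3, Mylpf, Cpeb1, Myh1, Myh2, Adipoq, Ucp1, Top2a, Arntl, Ddit4, Myh7, Bin1, Pax7, Trim63, Fbxo32, Mt2, Igf1, Fos, Chrne, Musk, Gpx3, H19, Ddx3y, Xist, Tac4, Gm12092, Gm12295 and the genes of opposite sign without the drug. The 47 gene lists, the comparison and the tests were chosen with earlier results of these data known. A few list members are counted but not reported here by name.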

Additional observations from a re-analysis of the deposited data

Results flagged for a closer look

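Among 457 groups of 4 libraries, one for each genotype and named or called list gene, 32 held a value far from the other 3 (7%, where chance alone gives about 1 in 20). WT + TAM 6 supplied 11 of them, 6 as the highest and 5 as the lowest value, and KO + TAM 14 supplied 5 of the highest.

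In WT + TAM 6, Mstn (2120 normalized counts), Cdh4 (495.4), Prima1 (243.2), Jph1 (18460), Kcnj12 (1915) and Myh4 (1186030) stood above the other 3 wild-type libraries. In the same library Myoz2 (835.4), Myh3 (42.78), S100a4 (213.9), Tgfb1 (229.7) and Anxa2 (1581) stood below them. The high genes were called lower and the low genes called higher in the knockout, so leaving this library out narrows each of these differences, and 689 genes were called without it. WT + TAM 5 stood apart for Ctgf (4014), Myf6 (3728) and Ppp1r1a (2745), all high. WT + TAM 7 was high for the T cell kinase Zap70 (20.34) and held the only reads of Sprr1a in wild type (2.393), and WT + TAM 8 was high for Igfbp2 (27.2).

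In KO + TAM 14, Aldh3a1 (3059), Igfbp2 (440.7), S100a4 (3547), Gdf5 (63.32) and Jph1 (10483) stood above the other knockout libraries and Mstn (178.1) below. KO + TAM 16 was high for the fat genes Adipoq (1904) and Ucp1 (1739) and for Myh4 (513446), and low for Lmod2 (5797) and Myc (300.5). KO + TAM 13 was high for Myoz2 (9331) and low for Spp1 (172.4) and Pgr (21.54), and KO + TAM 15 was high for Mt2 (17616).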

How the results depend on the processing

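No gene called in KO + TAM against WT + TAM turned direction under any setting tried, but the number of calls (979) moved. It was 1935 by DESeq2, 1818 by edgeR's exact test, 1749 by both, 1874 with library totals alone, 598 in a fit of all 16 libraries, 2476 at an adjusted p of 0.05, 1646 by limma on log2(RPKM + 1) and 539 with WT + TAM 7 and 8 summed, an alternative chosen after seeing the data. All 979 stayed called by DESeq2 and by the exact test. Leaving out 1 library gave 424 to 921 calls: 921, 689, 554 and 538 without WT + TAM 5 to 8 and 622, 537, 424 and 827 without KO + TAM 13 to 16. Calls that ended without 4 or more of the 8 libraries, each left out in turn, included those of Klhl31, Lmod2, Hk1, Myh8, Odc1, Cx3cr1, Gpd1, Pvalb, Ucp3, Col19a1, Ccr2, Capn3, Ncam1, Scn4b, Jak2, Lgals3, Th, Tnni1, Cacna1s, H2-Eb1, Des, Cyr61, Amd1, Anxa2, Abcc9, Kcna7, Ppp3cb, Myog, Myf6, Pfkfb3, Tbc1d1, Srf, Col23a1, Eno3, Esr1, Fsd2, Slc2a1, Itgb1, Fdps, Exoc3l4, Dnm3, Atp2a1, Ckm, Chrng, Tpm1, Nr4a1, Fbln1, Colq, Per1, Mtmr3, Myoz1, Pkm and Tmod4. Those of Atp1b1, Cyp4f39, Myc, Klhl33, Kcnj11, Kcnj2, Jph2, Hspb1, Thbs1, Fbp2, Cdh4, Jph1, C5ar1, Ghr, Atp2b3, Igfbp2, Ier3, Lox and Klhl40 ended without 1 to 3. Other scalings (979 and 980), no filter (1243), a minimum of 10 counts everywhere (892), 14 libraries (1325), limma on log2(RPKM + 0.1) (1116, of which 985 higher) and thinned libraries (965) gave counts within 1.5 times. Untreated calls (531) became 211 with WT 1 and KO 12 added, 1630 by DESeq2, 1885 at 0.05 and 1163 with library totals alone. The difference of effects gave 0 calls in every edgeR fit, 12 by DESeq2 and 3 by DESeq2 with 7 and 8 summed. The log2 fold change of Pik3c2b turned to -0.13 without WT + TAM 5 and to -0.02 without KO + TAM 16 (range over libraries left out -0.13 to 0.18). Pgr was called by DESeq2, by the exact test and at 0.05. The cause of these changes was not tested. No paired analysis was possible. The paper states that the samples came from littermates, but the labels used here give no litter. The replicate numbers run from 1 to 16 and no groups share one. The filter on low counts left 14563 genes of the 22907 fitted without it.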

Other observations

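Beside Sprr1a and Fbxl13, 3 genes had almost no reads in WT + TAM and 97 or more in KO + TAM. All of these passed the count filter through KO + TAM alone. Tac4, a tachykinin of the endokinin family, had 2 reads over the 4 WT + TAM libraries and 187 over the 4 KO + TAM libraries, a depth-corrected ratio of 69.0 with a 95% interval of 18.8 to 574. Gm12092, of unknown role, had 3 and 146 reads (35.9, interval 12.04 to 176). Gm12295 had 0 and 97 reads, at least 23.9-fold higher when 3 counts are set for the wild-type group. These intervals cover counting error only and not the spread between mice.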
